A study of Mus musculus with 9 samples.

Results

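Monocytic and polymorphonuclear myeloid-derived suppressor cells (Mo-MDSCs and PMN-MDSCs) are the 2 branches of an immature myeloid population that expands in tumour-bearing hosts, and the levels of 6 genes that separate them are described here: F13a1, Vcan, Ace, Arhgef10l, Tppp3 and Fn1. They are 6 of 23284 gene symbols measured, and they were chosen by values far above those of PMN-MDSCs in Mo-MDSCs of WT mice or by a known role in monocytes. That difference is therefore given as a description without a test. The difference between genotypes within Mo-MDSCs was no criterion of the choice and was tested, although its WT values took part in the choice.

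All 9 samples were splenic MDSCs of mice bearing SCT tumours, a line derived from the skin of a p16 knockout mouse and injected under the skin. Wild-type (WT) mice gave 3 samples of PMN-MDSCs and 3 of Mo-MDSCs, and p16/p21-DKO mice, which lack the CDK inhibitors p16 (Cdkn2a) and p21 (Cdkn1a), gave 3 of Mo-MDSCs. The labels give the strain as C57BL/6J for WT and C57BL/6 for DKO mice, so genotype and substrain cannot be told apart. They give 3 weeks as the age, whereas the study's methods state an older age at injection and place the isolation of MDSCs 3 weeks after it. Cells were separated with magnetic beads, PMN-MDSCs as Ly6G+ and Mo-MDSCs as Ly6G-Gr-1+ cells. No source used here says whether a sample is 1 mouse or a pool, so p-values measure the spread between these samples, which may be technical. PMN-MDSCs of DKO mice were not analysed here.

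The depth in reads is unknown, because the values are FPKM (fragments per kilobase of transcript, scaled to the library). Relative depth, read from the step of 1 fragment in low genes, ranged from 0.809 to 1.31, and 11299 to 11418 genes per sample reached 1 FPKM. The targeted genes did not check the genotype: Cdkn1a was at 6.46 to 8.18 FPKM in WT and 5.55 to 8.52 FPKM in DKO Mo-MDSCs (log2 difference -0.19, limma adjusted p = 0.637), and Cdkn2a was at 0.432 to 0.772 and 0 to 0.586 FPKM. Which exons the alleles lack is not given in the sources used here, so a value per gene cannot tell a deleted allele from an intact one, and the samples are called Mo-MDSCs labelled DKO below.

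Monocytes are known for secreted and surface proteins that act on clots, matrix and peptides, whereas neutrophils and their precursors are known for granule proteins. F13a1 encodes the A subunit of coagulation factor XIII, a transglutaminase that cross-links fibrin. Vcan and Fn1 encode versican, a large proteoglycan that binds hyaluronan, and fibronectin, the matrix glycoprotein bound by integrins. Ace encodes angiotensin-converting enzyme, a peptidase of the cell surface. Arhgef10l encodes an exchange factor that activates small GTPases, and Tppp3 a member of the tubulin polymerization-promoting family.

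In GRCm38 (mm10, GENCODE M21) the 6 protein-coding genes lie apart from each other. Fn1 is at chr1:71585520-71653200, Arhgef10l at chr4:140514485-140666012, Tppp3 at chr8:105467493-105471526, F13a1 at chr13:36867178-37050244 and Vcan at chr13:89655312-89742509, all on the minus strand, and Ace is at chr11:105967945-105989964 on the plus strand. F13a1 and Vcan share chromosome 13 at a distance of 52.6 Mb. Arhgef10l shares chromosome 4 with the targeted gene Cdkn2a, 51.2 Mb away. An antisense gene overlaps Fn1, Ace, F13a1 and Vcan in the annotation, and none overlaps Arhgef10l or Tppp3. The libraries were stranded, but the strand setting of the counting is not given in the sources used here. Each value pools the isoforms of a gene.

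The sequences before the start sites are shown because the genes were chosen for a shared pattern between the cell types. RefSeq promoter windows (GRCm38.p6) matched 4 of the 6 symbols, and the 250 bases upstream of the start are printed on the gene's strand for F13a1 (chr13:37050245-37050494, minus), Vcan (chr13:89742513-89742762, minus), Ace (chr11:105967698-105967947, plus) and Arhgef10l (chr4:140665906-140666155, minus). Capitals mark GAGGAA or its reverse complement TTCCTC, the core bound by PU.1, a factor of the myeloid lineage.
F13a1: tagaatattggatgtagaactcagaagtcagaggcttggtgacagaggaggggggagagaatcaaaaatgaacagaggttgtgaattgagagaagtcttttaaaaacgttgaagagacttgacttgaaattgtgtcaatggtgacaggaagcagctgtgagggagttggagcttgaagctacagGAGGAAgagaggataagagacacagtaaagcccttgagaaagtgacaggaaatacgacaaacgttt
Vcan: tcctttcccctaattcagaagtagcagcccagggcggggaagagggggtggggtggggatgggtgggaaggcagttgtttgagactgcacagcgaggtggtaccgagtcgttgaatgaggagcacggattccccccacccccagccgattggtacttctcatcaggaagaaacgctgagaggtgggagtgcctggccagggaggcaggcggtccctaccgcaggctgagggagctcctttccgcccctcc
Ace: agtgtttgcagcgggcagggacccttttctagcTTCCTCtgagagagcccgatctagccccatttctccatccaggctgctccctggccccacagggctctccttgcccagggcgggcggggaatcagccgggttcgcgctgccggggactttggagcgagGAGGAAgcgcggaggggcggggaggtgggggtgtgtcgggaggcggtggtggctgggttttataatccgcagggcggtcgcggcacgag
Arhgef10l: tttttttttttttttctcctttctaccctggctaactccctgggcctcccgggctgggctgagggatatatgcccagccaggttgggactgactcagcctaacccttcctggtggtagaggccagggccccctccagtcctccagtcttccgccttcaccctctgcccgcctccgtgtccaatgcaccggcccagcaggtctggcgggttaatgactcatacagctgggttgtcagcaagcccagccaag
GAGGAA or TTCCTC was present in the windows of Ace, where the matches begin 217 and 89 bases before the start, and of F13a1, where the match begins 66 bases before it. That is 2 of 4 windows, and 23.3% of all 32851 windows of this length held a match. CACCC or GGGTG, letters that KLF factors bind, was present in 3 of 4 windows (Vcan with 4 matches, Ace and Arhgef10l with 1 each) against 52.0% of all windows. CAGAC or GTCTG, letters of SMAD binding, was present in that of Arhgef10l against 42.2%, and GCAAT or ATTGC, letters of C/EBP binding, in 0 of 4 against 23.1%. Both strands were searched, and no match overlapped that of another motif in these windows. The base composition of the windows differed, with 42.8% G or C for F13a1, 59.2% for Arhgef10l, 62.4% for Vcan and 67.2% for Ace against a median of 52.4%. A match is a description of letters and not of binding.

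The 6 genes were low but above 0 in all 3 PMN-MDSC samples, and Vcan and Arhgef10l stayed under 1 FPKM in each. In WT Mo-MDSCs their mean levels were 39.8-fold (Ace) to 186-fold (F13a1) those in PMN-MDSCs. In Mo-MDSCs labelled DKO the folds over PMN-MDSCs ran from 17.7 (Ace) to 175 (F13a1), and the lowest sample labelled DKO was at least 12.4-fold above the highest PMN-MDSC sample for every one of the 6 genes. On the log2(FPKM + 0.1) scale the median difference from PMN-MDSCs was 5.71 for WT and 5.23 for labelled DKO Mo-MDSCs, with the same PMN-MDSC samples in both. PMN-MDSC values took part in the choice, so these are levels without a test. In bulk RNA, fewer cells that express a gene and less RNA per cell cannot be told apart.

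**Figure D1:**
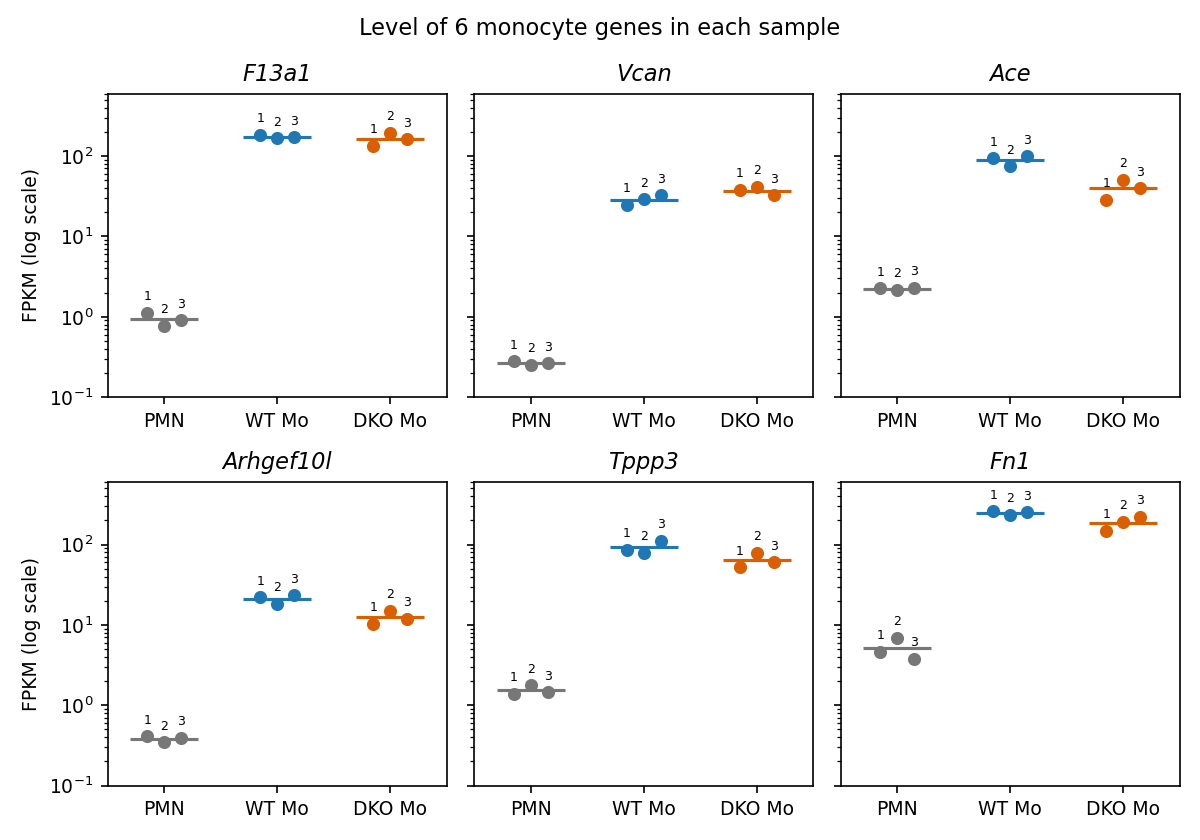
FPKM of the 6 genes in each sample (log axis), with points numbered by replicate and lines at the mean of 3 samples; grey is PMN-MDSC, blue WT Mo-MDSC and orange Mo-MDSC labelled DKO. Both Mo-MDSC groups lie far above the PMN-MDSC samples in all 6 panels, and Ace shows the widest gap between the genotypes.

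The choice had no stated threshold. Ordered by the log2 difference between WT Mo-MDSCs and PMN-MDSCs over 11491 genes, F13a1 (7.41) was at rank 5, Vcan (6.30) at 8, Tppp3 (5.81) at 11, Fn1 (5.61) at 14, Arhgef10l (5.46) at 15 and Ace (5.24) at 16. The 4 genes above F13a1 were the small RNA genes Snord32a, Mir762, Mir147 and Mir719. Among the genes interspersed were Ccr2 (7.01), Arhgef37 (6.86), Galnt9 (6.07), Trem2 (5.72) and S100a4 (5.69), and Plcb1 (5.13) was at rank 18, outside the 6. Across all genes 18.5% were called higher and 20.6% lower in WT Mo-MDSCs at an adjusted p below 0.05, a background from which nothing is read for the 6 genes themselves.

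Between the genotypes the 6 genes did not move as a block. Ace, Arhgef10l, Tppp3 and Fn1 had every sample labelled DKO below every WT sample, at 44.4% to 75.7% of the WT mean, Vcan had every sample labelled DKO above WT at 129%, and F13a1 overlapped at 94.1%. In 11451 genes, 12.9% had all samples labelled DKO lower and 7.96% all higher. None of the 6 genes passed an adjusted p below 0.05, where 0.166% of all genes were called higher and 0.0873% lower (19 and 10 genes). At an unadjusted p below 0.05, 5 of the 6 were reached, 4 lower and 1 higher, against 9.74% and 5.27% of all genes. The median of the 6 differences was -0.48 on the log2 scale, and that of all genes -0.02. High values in WT Mo-MDSCs took part in the choice, so a WT value that was high by chance would itself lower this comparison, and its part was not tested.

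**Figure D2:**
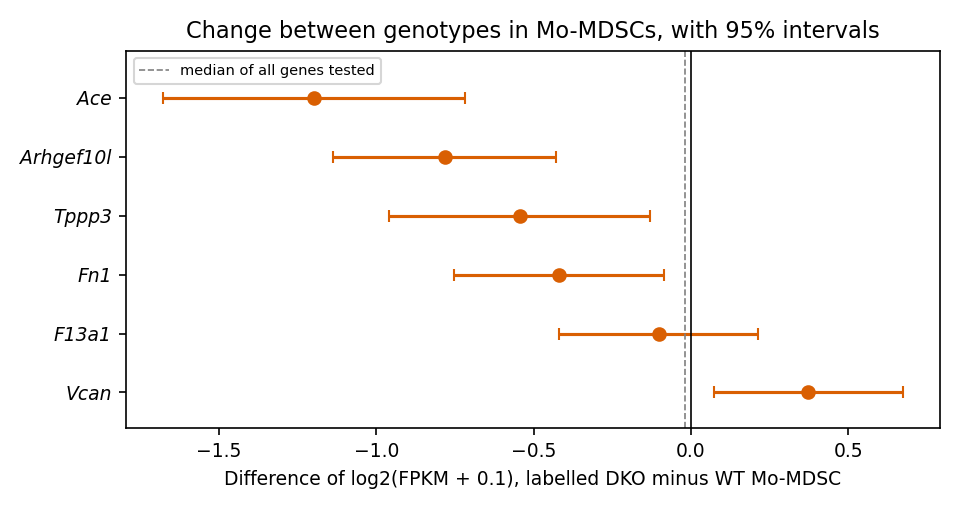
Difference of log2(FPKM + 0.1) between Mo-MDSCs labelled DKO and WT Mo-MDSCs for each of the 6 genes (points) with 95% intervals from limma (bars), 3 samples per group; the dashed line is the median of all genes tested. The intervals of Ace, Arhgef10l, Tppp3 and Fn1 lie below 0, that of Vcan lies above 0 and that of F13a1 spans 0.

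F13a1, the factor XIII A subunit, had the largest ratio between the cell types. It was at 1.13, 0.772 and 0.901 FPKM in PMN-MDSCs, at 183, 167 and 171 FPKM in WT Mo-MDSCs (mean 174 ± 8.43 SD, n = 3) and at 134, 194 and 162 FPKM in Mo-MDSCs labelled DKO (163 ± 30.3). The WT samples fell inside the range of the samples labelled DKO, of which replicate 1 was lowest and replicate 2 highest. The log2 difference between genotypes was -0.10 (SE 0.14, 95% interval -0.42 to 0.21, limma adjusted p = 0.745), and the exact two-sided permutation test gave p = 0.7. The interval leaves room for a change of either sign, and the sign turned to 0.03 without replicate 1 labelled DKO.

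The other transglutaminases did not share the large rise of F13a1 from PMN-MDSCs to WT Mo-MDSCs. Of 9 listed genes 4 passed the filter on low values between the cell types, of which 0 were called higher and 2 lower (1 higher, Epb4.2, and 2 lower with the replicate number as a block). Tgm2, the tissue transglutaminase, was at 144 to 172 FPKM in PMN-MDSCs and 86.7 to 116 FPKM in WT Mo-MDSCs, and fell by 0.66 (limma adjusted p = 0.00722). Tgm1, which cross-links proteins of the skin barrier, fell by 0.77 (adjusted p = 0.00962). F13b, the carrier B subunit that factor XIII has in plasma, was at 0 to 0.210 FPKM in all 9 samples. Between genotypes Tgm2 was at 126 to 138 FPKM in Mo-MDSCs labelled DKO, above every WT sample, with a log2 difference of 0.44 that did not pass the test (adjusted p = 0.199).

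Of the 12 genes of coagulation and fibrinolysis, 9 were tested between the cell types. Of these 3 were called higher in WT Mo-MDSCs and 1 lower, against 18.5% and 20.6% of all genes. With the replicate number as a block 4 were higher and 1 lower, in a fit that called 6584 of all 11491 genes. F10, the zymogen of factor Xa, rose by 4.87 on the log2 scale (adjusted p = 8.03e-06), from 1.16 to 1.95 FPKM in PMN-MDSCs to 40.4 to 50.9 FPKM. F7, the protease that starts clotting with tissue factor, was at 0, 0.259 and 0.111 FPKM in PMN-MDSCs and 1.06 to 1.84 FPKM in WT Mo-MDSCs. It passed the filter only through the group in which it is high, so its call is no support for a rise. Thbd, the thrombomodulin that turns thrombin to protein C, rose by 1.07 (adjusted p = 0.000609). Tissue factor itself, F3, was under 0.5 FPKM in all 9 samples. Plaur, the urokinase receptor, fell by 0.74 (adjusted p = 0.0362).

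Between genotypes limma called 0 of 8 coagulation genes, with a median difference of -0.37. At an unadjusted p below 0.05, 3 were lower and 1 higher, against 9.74% and 5.27% of all genes. F7, among the lower genes and in the median, passed the filter only through the WT samples, in which it is high. It is no support for a fall. F10 was at 21.9, 37.8 and 24.1 FPKM in Mo-MDSCs labelled DKO, below every WT sample (log2 difference -0.78, SE 0.20, adjusted p = 0.186).

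Vcan, versican, had the lowest PMN-MDSC level of the 6 genes and was the one whose values were higher in the samples labelled DKO. It was at 0.281, 0.253 and 0.264 FPKM in PMN-MDSCs, at 24.8, 29.2 and 32.4 FPKM in WT Mo-MDSCs (28.8 ± 3.84) and at 37.9, 41.3 and 32.5 FPKM in Mo-MDSCs labelled DKO (37.3 ± 4.44). The groups did not overlap, although the lowest sample labelled DKO and the highest WT sample were nearly equal. The log2 difference was 0.37 (SE 0.13, 95% interval 0.07 to 0.67, limma adjusted p = 0.258). The exact permutation test gave p = 0.1, the smallest value that 3 samples against 3 allow.

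Of 17 genes of the hyaluronan system, 3 passed the filter between the cell types. The other proteoglycans of the versican family, Acan, Ncan and Bcan, were under 0.1 FPKM in every sample, and the link proteins Hapln2 and Hapln3 were listed at 0 in all 9. Cd44, the hyaluronan receptor, was at 348 to 394 FPKM in PMN-MDSCs and 147 to 160 FPKM in WT Mo-MDSCs and fell by 1.28 (adjusted p = 5e-05). It was the 1 call of the list, against 18.5% of all genes called higher and 20.6% lower. The fit with the block, which called 6584 of all 11491 genes, added Hmmr as higher and Hyal2 as lower (adjusted p = 0.0118 and 0.0417). Cd44 was at 150 to 168 FPKM in Mo-MDSCs labelled DKO, with a log2 difference of 0.03 (95% interval -0.17 to 0.22). The synthases Has1, Has2 and Has3 stayed under 0.3 FPKM in all samples.

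Ace differed most between the genotypes. It was at 2.26, 2.17 and 2.31 FPKM in PMN-MDSCs, at 93.4, 74.8 and 99.9 FPKM in WT Mo-MDSCs (89.4 ± 13.03) and at 28.7, 50.9 and 39.5 FPKM in Mo-MDSCs labelled DKO (39.7 ± 11.1). All 3 samples labelled DKO were below all 3 WT samples, and replicate 1 was lowest. The log2 difference was -1.20 (SE 0.21, 95% interval -1.68 to -0.72, unadjusted p = 0.000476 and adjusted p = 0.0862 by limma), rank 71 from the lowest of 11451 genes. It passed the threshold when all 9 samples shared 1 fit (adjusted p = 0.0317), and the exact permutation test gave its smallest value, p = 0.1.

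Of 13 listed genes of the angiotensin pathway around Ace, 3 passed the filter between the cell types and 4 between genotypes. Between the cell types 0 were called higher and 1 lower, against 18.5% and 20.6% of all genes. With the block 3 were lower (Anpep and Agtrap added), in a fit that called 6584 of all 11491 genes. The AT1 receptor gene Agtr1a was at 0.712 to 2.41 FPKM over the 9 samples, with a log2 difference between genotypes of 0.42 (adjusted p = 0.724), while the receptors Agtr1b, Agtr2 and Mas1 were listed at 0 in all 9. Agt, the angiotensinogen that yields the substrate of Ace, and Ren1, renin, were each at 0 in some samples and at most 0.262 FPKM. The aminopeptidase Lnpep, also known as a receptor for angiotensin IV, fell by 0.45 between the cell types (adjusted p = 0.0114). Agtrap, which binds the AT1 receptor, was at 18.1 to 22.0 FPKM in WT Mo-MDSCs and 20.6 to 27.2 FPKM in PMN-MDSCs. Anpep, aminopeptidase N, was at 4.59, 6.77 and 3.80 FPKM in WT and 9.31, 9.98 and 9.33 FPKM in labelled DKO Mo-MDSCs, a log2 difference of 0.94 opposite in sign to that of Ace (adjusted p = 0.136; 0.0322 without WT replicate 2).

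Arhgef10l was the second gene by the size of the difference between genotypes. It was at 0.410, 0.348 and 0.394 FPKM in PMN-MDSCs, at 22.0, 18.4 and 23.4 FPKM in WT Mo-MDSCs (21.3 ± 2.55) and at 10.3, 14.9 and 12.0 FPKM in Mo-MDSCs labelled DKO (12.4 ± 2.35). The 3 samples labelled DKO lay below the 3 WT samples. The log2 difference was -0.78 (SE 0.15, 95% interval -1.14 to -0.43, limma adjusted p = 0.121, exact permutation p = 0.1).

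Among 7 relatives and partners of Arhgef10l, 6 were tested between the cell types. Of these 1 was called higher and 4 lower in WT Mo-MDSCs, against 18.5% and 20.6% of all genes. Arhgef10, its closest relative, rose by 0.66 (adjusted p = 0.0449) from 0.744 to 1.15 FPKM in PMN-MDSCs to 1.53 to 1.63 FPKM, a small step beside that of Arhgef10l. Rhoa, Rhob and Rhoc, the small GTPases that such factors can load, fell by 0.33, 0.74 and 1.78 (adjusted p = 0.0239, 0.0007 and 0.000331), and their effector kinase Rock1 fell by 0.64 (adjusted p = 0.00409). Between genotypes 0 of 6 were called and none had an unadjusted p below 0.05. Arhgef10 was at 1.34 to 1.51 FPKM in samples labelled DKO (log2 difference -0.13, 95% interval -0.55 to 0.28).

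Tppp3, which binds tubulin, was at 1.40, 1.78 and 1.45 FPKM in PMN-MDSCs, at 86.5, 79.4 and 112 FPKM in WT Mo-MDSCs (92.6 ± 17.1) and at 52.4, 78.7 and 59.8 FPKM in Mo-MDSCs labelled DKO (63.7 ± 13.6). The highest sample labelled DKO came close to the lowest WT sample without overlap. The log2 difference was -0.54 (SE 0.18, 95% interval -0.96 to -0.13, limma adjusted p = 0.243, exact permutation p = 0.1). Its relative Tppp went the other way, from 2.48 to 3.27 FPKM in WT to 3.56 to 5.28 FPKM in samples labelled DKO (log2 difference 0.57, adjusted p = 0.262), and did not differ beyond its spread between the cell types (-0.23, adjusted p = 0.357). Tppp2 was listed at 0 in all 9 samples.

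Fn1, fibronectin, had the highest mean level of the 6 genes in every group. It was at 4.63, 6.97 and 3.80 FPKM in PMN-MDSCs, at 258, 234 and 253 FPKM in WT Mo-MDSCs (248 ± 12.8) and at 150, 193 and 221 FPKM in Mo-MDSCs labelled DKO (188 ± 35.9). The samples labelled DKO were below the WT samples and spread more widely, and replicate 3 was the highest. The log2 difference was -0.42 (SE 0.14, 95% interval -0.75 to -0.09, limma adjusted p = 0.255, exact permutation p = 0.1). Without replicate 1 labelled DKO it was -0.26.

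Of 10 listed genes for receptors of fibronectin 9 were tested between the cell types. Of these 4 were called higher and 2 lower in WT Mo-MDSCs, against 18.5% and 20.6% of all genes. With the block 6 were higher and 3 lower, in a fit that called 6584 of all 11491 genes. Itga4 and Itgb7, which pair as a receptor of fibronectin and mucosal addressin, rose by 0.57 and 1.71 (adjusted p = 0.00385 and 0.000159), and Itgb7 went from 24.6 to 37.2 FPKM up to 95.4 to 104 FPKM. Itgav rose by 0.69 and Itgb1 by 0.38 (adjusted p = 0.0101 and 0.0103). Itgb3, the beta chain of the platelet fibrinogen receptor, and the syndecan Sdc4 fell by 0.80 and 0.43 (adjusted p = 0.00329 and 0.0273). Itga5, which with Itgb1 forms the classical fibronectin receptor, had a log2 difference of 0.28 (adjusted p = 0.0564, and 0.0128 with the block). Between genotypes limma called 0 of 9, and 1 was higher at an unadjusted p below 0.05 (Itga9, log2 difference 0.35), against 5.27% of all genes.

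Over the 7 lists, 35 of 70 genes were tested between the cell types, with 8 called higher and 11 lower and a median of -0.23, against the background of 18.5% and 20.6% given above. With the replicate number as a block 13 were called higher and 15 lower. Between genotypes 36 were tested and limma called 0, with 5 higher and 3 lower at an unadjusted p below 0.05, against 5.27% and 9.74% of all genes. The lower genes include F7, which passed the filter only through the WT samples. Of the listed genes F10 came nearest to the 6 in the difference between the cell types.

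**Figure D3:**
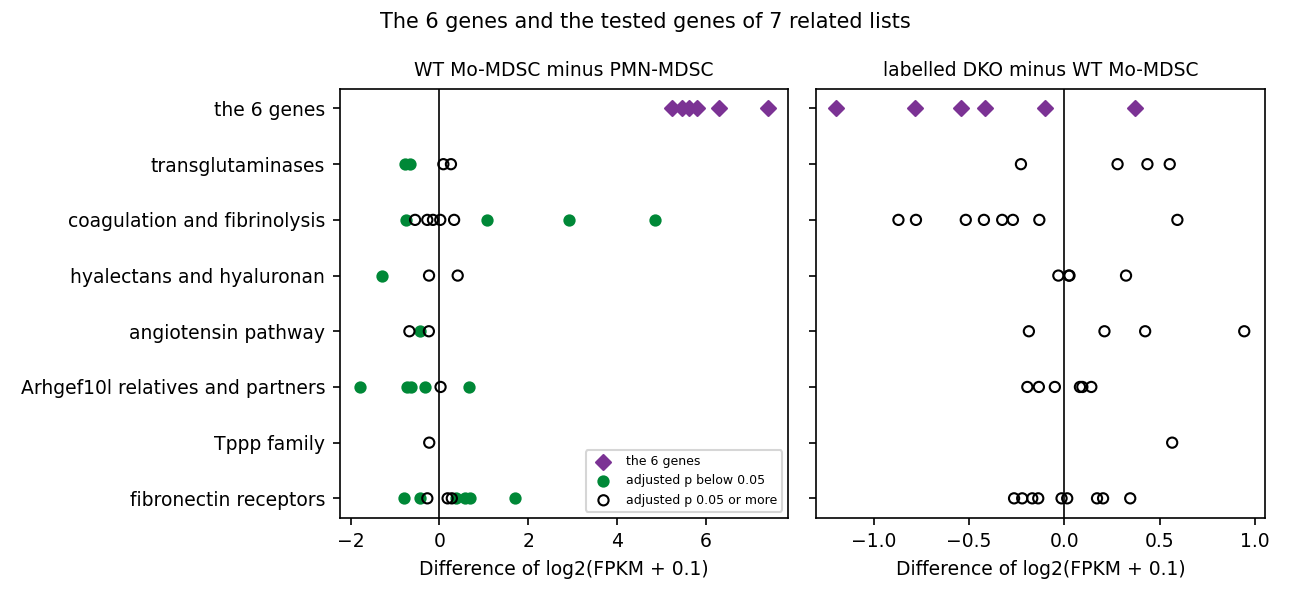
Differences of log2(FPKM + 0.1) for the 6 genes (purple diamonds) and for the tested genes of 7 lists of relatives and partners (circles, filled at an adjusted p below 0.05), between WT Mo-MDSCs and PMN-MDSCs at left and between genotypes at right. The 6 genes lie at 5.24 to 7.41 at left, where F10 at 4.87 is the nearest listed gene, and at right no circle is filled.

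The 6 profiles over the 9 samples were compared by the root mean square difference of log2 values, each centred on its own mean. Tppp3 and Fn1 were closest (0.237), followed by Ace and Arhgef10l (0.274) and Arhgef10l and Tppp3 (0.282), and F13a1 and Ace were farthest (1.36). F13a1 and Vcan were nearer to each other (0.495) than either was to the other 4. These distances describe samples that share libraries and that chose the genes, and they carry no test.

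Among 11720 other genes that reached 1 FPKM in 3 or more of all 9 samples, Arhgef37, an exchange factor of the same large family, was nearest to both F13a1 (0.470) and Vcan (0.432). Ccr2, the receptor that draws monocytes from the marrow, was the second nearest to F13a1 (0.510) and the third nearest to Vcan (0.528), and Galnt9 was the other near gene for both. Near genes need not share the difference between genotypes, which was -0.86 for Ccr2, -0.10 for F13a1 and 0.37 for Vcan on the log2 scale. Ace was nearest to F10 (0.290), Rab36 (0.308) and the chemokine gene Ccl9 (0.338).

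S100a4, a calcium-binding protein of motile cells, was nearest to both Arhgef10l (0.226) and Tppp3 (0.336), at a mean of 20.9 FPKM in PMN-MDSCs, 1084 FPKM in WT and 599.6 FPKM in labelled DKO Mo-MDSCs. Mfsd7a (0.236) and Plcb1 (0.286) followed for Arhgef10l, and Galnt9 (0.417) was the third nearest to Tppp3. Trem2, a receptor of macrophages, was the second nearest to Fn1 (0.368) and Mfsd7a the third (0.438).

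Levels per length ordered the 6 genes as Fn1, F13a1, Tppp3, Ace, Vcan and Arhgef10l by the mean in WT Mo-MDSCs. Tppp3 and Ace did not differ beyond their spread there (92.6 ± 17.1 and 89.4 ± 13.03 FPKM), and the other neighbours did not overlap. In the samples labelled DKO the order was Fn1, F13a1, Tppp3, Ace, Vcan and Arhgef10l again, with Fn1 and F13a1 overlapping and Ace and Vcan overlapping (39.7 ± 11.1 and 37.3 ± 4.44 FPKM). In PMN-MDSCs Fn1 and Ace led, and Arhgef10l and Vcan were lowest.

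Replicate 1 labelled DKO was the lowest of its group for 5 of the 6 genes and replicate 2 the highest for 5. The library numbers in the labels are lower for replicate 1 of each group than for replicates 2 and 3, and no source used here says whether they mark a batch. Within replicates 2 and 3 alone the log2 differences were -0.95 for Ace, -0.63 for Arhgef10l, -0.46 for Tppp3, -0.23 for Fn1, 0.25 for Vcan and 0.07 for F13a1, smaller than or opposite to those over all samples. Replicate 1 has 1 sample a group and gives no test.

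The labelled cell types were checked against their markers. Between the cell types 9 of 12 genes of the monocyte list were called higher in WT Mo-MDSCs, against 18.5% of all genes. Among them Ccr2 was at 2.36 to 2.51 FPKM in PMN-MDSCs and 281 to 362 FPKM in WT Mo-MDSCs. Csf1r, the receptor that defines the monocyte lineage, did not separate them: it was at 674 to 841 FPKM in PMN-MDSCs and 750 to 853 FPKM in WT Mo-MDSCs. Cd14 was called lower, falling by 1.16. Of 11 neutrophil genes 7 were called lower in WT Mo-MDSCs and 0 higher, against 20.6% and 18.5% of all genes. With the replicate block 11 were called lower, in a fit that called 6584 of all 11491 genes in either direction.

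Markers of other cells were present beside the 6 genes. The summed neutrophil list was at 100762 to 234465 FPKM in PMN-MDSCs, 18025 to 62200 FPKM in WT and 7150 to 17262 FPKM in labelled DKO Mo-MDSCs. S100a8 and S100a9 set most of that sum. Between genotypes 8 of 11 neutrophil genes were lower and 1 higher (Mmp8) at an unadjusted p below 0.05, against 9.74% and 5.27% of all genes, with 0 called and a median of -1.27. The 6 genes were low in PMN-MDSCs, where that list was highest. The macrophage list summed to 5335 to 6415 FPKM in PMN-MDSCs, 3396 to 4402 FPKM in WT and 3674 to 5549 FPKM in labelled DKO Mo-MDSCs. C1qa, C1qb and C1qc were at 670 FPKM or more in every sample. Between the cell types 5 of the 10 macrophage genes were called lower in the WT Mo-MDSCs (8 with the block), against 20.6% of all genes without the block. The highest macrophage sum among samples labelled DKO was in replicate 1, the sample lowest for 5 of the 6 genes.

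The monocyte list summed to 4535 to 5110 FPKM in WT and 3712 to 4321 FPKM in labelled DKO Mo-MDSCs, a sum that its most abundant genes set, and the median difference of its genes was -0.21. Of the 12 genes limma called 0, and 5 were lower (Ly6c2, Ccr2, Cx3cr1, Klf4 and Ms4a6c) and 1 higher (Cd14) at an unadjusted p below 0.05, against 9.74% and 5.27% of all genes. In the list of Ly6C-low monocytes, Nr4a1, Spn and Eno3 were lower and Cd300e higher at that threshold, with 0 called. The part that any of these cells had in the differences of the 6 genes was not tested.

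The stroma list summed to 3.08 to 11.9 FPKM and the platelet and megakaryocyte list to 4.90 to 11.6 FPKM over the 9 samples. Other lists were at 969 to 1568 FPKM for B cells, 2993 to 6795 FPKM for erythroid cells, 46.5 to 70.6 FPKM for endothelium, 18.4 to 47.0 FPKM for dendritic cells and 6.50 to 12.6 FPKM for T and NK cells. No gene of the marker lists was at 0 in all 9 samples.

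**Figure D4:**
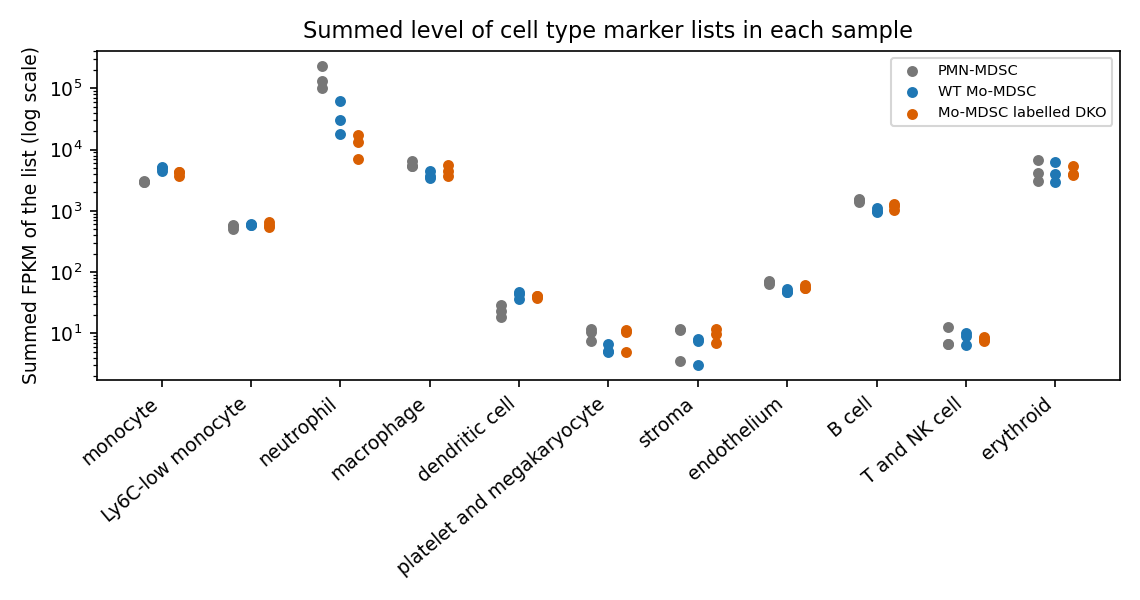
Summed FPKM (log axis) of 11 lists of cell type markers in each of the 9 samples; grey is PMN-MDSC, blue WT Mo-MDSC and orange Mo-MDSC labelled DKO. The sum of the neutrophil list, set mostly by S100a8 and S100a9, separates the 3 groups, although single genes of that list overlap between the 2 Mo-MDSC groups. The ranges of the erythroid list overlap in all 3 groups.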

How the data were processed

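RNA sequencing of splenic MDSCs gave 9 samples, grouped by the labels. Stranded mRNA libraries were mapped by the authors to mm10 with TopHat2 2.0.13, Bowtie2 2.2.3 and SAMtools 0.1.19, and FPKM values per gene symbol from Cuffnorm 2.2.1 were deposited; the annotation is not given in the sources used here. Depth in reads is unknown, so precision is given by standard errors.

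FPKM values were used as deposited and transformed to log2(FPKM + 0.1), a scale on which the change of low genes is understated. For each comparison of 6 samples, genes that reached 1 FPKM in 3 or more were fitted with limma 3.58.1 (R 4.3.3, lmFit and eBayes with a trend), and genes with a Benjamini-Hochberg adjusted p below 0.05 were called. The 6 genes were also tested between genotypes with an exact two-sided permutation test. The fit was tested on simulated data. The 6 genes and all lists were chosen with earlier results of these data known. The text names the 6 genes, list genes that were called or had the highest levels, and those of the 3 nearest profiles of each gene that are reported here, since some genes are not; other genes were named after their values were seen. List symbols were matched through RefSeq synonyms where needed, and Ly6g, Ighm and Hbb-bt were not matched. Deviations of samples with the same replicate number were correlated at 0.29, 0.48 and 0.20 between WT Mo-MDSCs and PMN-MDSCs. The main fits nevertheless left samples unpaired, and p-values and calls are from them unless the block is named. Pairs by replicate number entered only the alternative called the block. Alternatives were other pseudocounts, filters, scalings and fits, and leaving out each sample.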

Additional observations from a re-analysis of the deposited data

How the results depend on the processing

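For the 6 genes between genotypes, 16 alternatives were run. Vcan, Arhgef10l, Tppp3 and Fn1 kept their direction and stayed at an adjusted p of 0.05 or more in all 16, with log2 differences of 0.25 to 0.47, -0.92 to -0.63, -0.71 to -0.40 and -0.54 to -0.23. Ace kept its direction (-1.40 to -0.95, adjusted p from 0.0317 to 0.422) and passed the threshold in 1, all 9 samples in 1 fit (-1.20). F13a1 turned positive with quantile normalization (0.032) and with replicates 2 and 3 only (0.071), and ran from -0.24 to 0.032 when each sample was left out, the positive value being without replicate 1 labelled DKO. The cause was not tested. Between genotypes 29 genes were called, but 13 without a filter on low values (more genes tested), 51 with all 9 samples in 1 fit, 0 without variance moderation (1326 at an unadjusted p below 0.05), 6 with replicates 2 and 3 only (fewer samples) and 8 to 25 without each sample in turn: 9 without WT replicate 1 or 3, 12 without replicate 1 or 2 labelled DKO and 8 without replicate 3 labelled DKO. Between the cell types 4492 were called, 2759 with replicates 2 and 3 only and 3295 to 3864 without each sample in turn. With pseudocount 1 the differences between the cell types shrank, to 4.55 for Vcan and 4.00 for Arhgef10l.

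Same-numbered samples of the 2 genotypes had deviations correlated at 0.35, 0.23 and -0.07, which does not settle whether the numbers pair them. With the replicate block 20 genes were called between genotypes and 6584 between the cell types, and no call of the 6 genes changed (Ace adjusted p = 0.135). The block removed no call of a related gene between the cell types and added some, such as Anpep (adjusted p = 0.000737) and Itga5 (0.0128). Counts of related genes called under alternatives were computed after the data had been seen: 6 to 13 higher and 7 to 15 lower between the cell types, and 0 or 1 between genotypes.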
